A study of Mus musculus with 6 samples.

Results

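The 37 genes described here mark T cells, natural killer (NK) cells, B cells and plasma cells. They were chosen by symbol from what is known of lymphocytes, and a gene was found on the array where the accession of one of its probes maps to its symbol. All 37 were on the array, with 47 probes, and 8 of them had several probes. After the filter on dim probes 29 of the 37 could be compared, among 27412 genes and unnamed transcripts tested in all. The genes were measured in 6 hepatocellular carcinomas (HCC) of C57BL/6 mice, 1 tumour per 1-colour array. Both Albumin-derived tumours came from Alb-AID mice at 90 weeks of age and are labelled as without CLC. The Epcam-derived tumours came from Epcam-AID mice that received tamoxifen and then a diet with 0.1% DDC for 8 months, and 2 of them are labelled as without CLC and 2 as with CLC. DDC is a chemical that blocks heme synthesis and injures bile ducts. CLC is a component of the tumour, and the labels expand neither CLC nor AID. All 6 tumours come from AID lines, and no untreated or normal liver is among them. The Albumin-derived tumours had no DDC or tamoxifen in their labels, so that line, diet and drug cannot be told apart when they are compared with the Epcam-derived tumours, and the age of the Epcam-AID mice is not given in the labels.

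T cells recognise peptides with an antigen receptor whose signal passes through the CD3 chains, with CD4 or CD8 as coreceptor. Cytotoxic T cells and NK cells kill target cells with perforin and granzymes held in granules, and NK cells are an abundant lymphocyte of the liver. B cells signal through their membrane immunoglobulin with CD79A and CD79B, and some become plasma cells that secrete antibody. In a tumour these genes are read as signs of the immune cells within it. Signal of whole tumour RNA does not tell fewer cells of a type from less RNA per cell.

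The start regions of 5 of these genes are shown because the results below turn on them. Gzmb, Gzma and Nkg7 stand for the granule genes, Cd8a for the coreceptor with the largest difference in tumours with CLC, and Cd3g for the CD3 chains. Each is the 250 bases before the start site that RefSeq gives on GRCm38.p6, written along the gene's strand. Gzmb lies at chr14:56262335-56262584 on the minus strand, Gzma at chr13:113100982-113101231 on the minus strand, Nkg7 at chr7:43436888-43437137 on the plus strand, Cd8a at chr6:71373177-71373426 on the plus strand and Cd3g at chr9:44980432-44980681 on the minus strand. Capitals mark every match, on either strand, to TGTGGT (bound by RUNX factors), CAGGAAG (ETS factors), TGANTCA (AP-1) or ATGCAAAT (the octamer that Pou2af1's partner factors bind).
Gzmb: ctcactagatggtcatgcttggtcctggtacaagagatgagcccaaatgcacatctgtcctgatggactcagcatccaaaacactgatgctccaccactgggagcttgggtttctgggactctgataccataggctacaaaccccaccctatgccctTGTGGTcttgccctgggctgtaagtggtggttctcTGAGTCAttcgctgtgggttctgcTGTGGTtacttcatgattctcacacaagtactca
Gzma: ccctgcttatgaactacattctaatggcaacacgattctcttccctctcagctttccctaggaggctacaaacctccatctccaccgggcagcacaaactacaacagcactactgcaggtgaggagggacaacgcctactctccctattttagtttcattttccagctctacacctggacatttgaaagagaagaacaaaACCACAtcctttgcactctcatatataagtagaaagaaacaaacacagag
Nkg7: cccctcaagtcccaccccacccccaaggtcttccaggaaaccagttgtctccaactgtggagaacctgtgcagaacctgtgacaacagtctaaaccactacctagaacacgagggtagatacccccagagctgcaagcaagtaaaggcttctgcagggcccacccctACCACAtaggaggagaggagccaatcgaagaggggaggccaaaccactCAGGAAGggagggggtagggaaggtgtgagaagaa
Cd8a: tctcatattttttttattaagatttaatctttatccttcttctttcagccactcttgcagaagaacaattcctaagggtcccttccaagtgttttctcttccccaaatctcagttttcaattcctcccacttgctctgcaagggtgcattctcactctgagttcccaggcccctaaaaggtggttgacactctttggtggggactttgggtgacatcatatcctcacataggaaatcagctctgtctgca
Cd3g: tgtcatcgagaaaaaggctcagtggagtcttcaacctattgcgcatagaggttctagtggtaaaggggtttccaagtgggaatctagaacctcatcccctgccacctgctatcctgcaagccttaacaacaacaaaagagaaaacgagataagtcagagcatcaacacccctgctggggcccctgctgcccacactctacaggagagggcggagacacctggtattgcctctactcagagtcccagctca

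Gzmb held 2 RUNX matches, whose first bases lie 93 and 34 bases before the start, and an AP-1 match that begins 58 bases before it. Nkg7 held a RUNX match that begins 83 bases before the start and an ETS match that begins 35 bases before it. In Gzma a RUNX match begins 50 bases before the start, and the windows of Cd8a and Cd3g held none of the 4 motifs. A window was found for 26 of the 37 genes. The RUNX letters were in the windows of 8 of these 26 genes, namely Gzma, Gzmb, Klrb1c, Klrk1, Ncr1, Nkg7, Prf1 and Tigit, and in 14.0% of all 32851 windows. Of the 9 cytotoxic and NK receptor genes with a window, 7 held them, and of the 17 others 1 did, Tigit. The ETS letters were in the windows of 6 genes (10.8% of all windows), the AP-1 letters only in that of Gzmb (6.75% of all windows), and the octamer in 0 (1.60% of all windows). Such a match is a description of the letters and says nothing of what binds there. The genes Cd3g and Cd3d point away from each other on chromosome 9, with start sites 1355 bases apart.

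Signal is given as a percentage of the 75th percentile of the same array, because arrays differ in brightness, and values of a pair follow the replicate numbers 1 and 2. The 75th percentile itself ranged from 285 to 488 intensity units, and between 52.0% and 64.6% of probes were well above background. The dimmest probe well above background stood at 2.01% to 5.94% of the 75th percentile, with the highest of these limits in Epcam-derived tumour 1 with CLC, so that dim genes were harder to see there. Probes hybridise with different strength, so levels are compared between tumours and not between genes. Of the 37 genes, 20 were well above background on all 6 arrays at their brightest probe, 6 on 4 or 5 arrays, 8 on 1 to 3 arrays and 3 (Ctla4, Tigit and Ncr1) on none. The arrays lay on 2 slides, told apart by their barcodes. Slide 1 held both Albumin-derived tumours and Epcam-derived tumour 1 with CLC, and slide 2 held the other 3.

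Epcam-derived tumour 2 with CLC stood apart. It had the highest signal for 15 of the 29 measured lymphocyte genes, while 10.1% of all 27412 features were highest there. Epcam-derived tumour 1 without CLC was highest for 6, Epcam-derived tumour 1 with CLC for 5, Albumin-derived tumour 2 for 2, Epcam-derived tumour 2 without CLC for 1 and Albumin-derived tumour 1 for 0. The median deviation of the 29 genes from their own means was 0.64 on the log2 scale in Epcam-derived tumour 2 with CLC, and it lay between -0.36 and 0.06 in the other 5 tumours. The tumours of a group also differed more in these genes than in features as a whole. The median absolute difference between the 2 tumours of a group was 0.65 (log2) in the Albumin-derived group, 0.59 in the Epcam-derived group without CLC and 0.87 in the group with CLC, against 0.34, 0.38 and 0.39 over all features. Counts and medians over gene lists in tumours with CLC are therefore given with and without tumour 2.

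**Figure D1:**
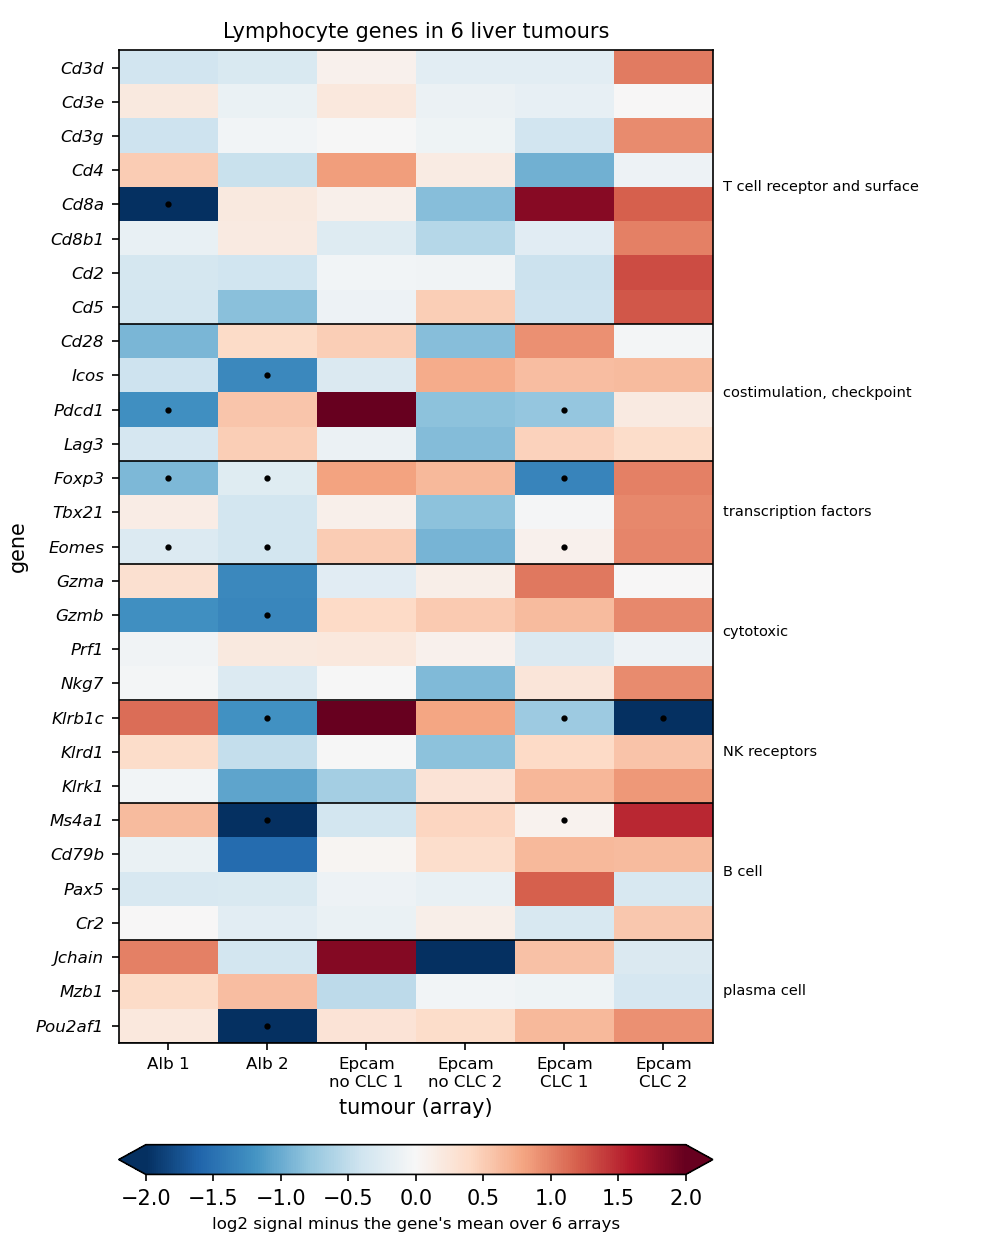
Each row is 1 of the 29 measured lymphocyte genes, grouped by role, and each column 1 of the 6 tumours. Colour is the log2 signal minus the gene's mean over the 6 arrays, cut at 2 in either direction, and a dot marks a probe not well above background on that array. The column of Epcam-derived tumour 2 with CLC holds the highest value for 15 of the 29 genes.

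Among the chains of the T cell receptor, the signal of Cd3d and Cd3g was highest in Epcam-derived tumour 2 with CLC, whereas Cd3e was nearly level. Cd3d measured 51.4% and 54.5% in the Albumin-derived tumours, 71.1% and 58.1% in the Epcam-derived pair without CLC, and 58.5% and 138% in the pair with CLC. Cd3g measured 15.5% and 19.8%, 20.4% and 19.3%, and 15.7% and 39.7% in the same order. For both genes 1 tumour lay far above the other 5. Among those 5, Cd3d was lowest in the Albumin-derived pair. Cd3e, the third chain, ranged from 233% to 304%, the narrowest range among the 8 T cell surface genes, with the highest value in Epcam-derived tumour 1 without CLC. The other probe of Cd3d gave the same order of tumours at the top, with 26.3% and 30.1%, 53.7% and 30.2%, and 33.3% and 80.3%.

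The coreceptors did not move together. Cd8a, the alpha chain of the coreceptor of cytotoxic T cells, measured 1.02% and 6.39% in the Albumin-derived tumours, 6.01% and 3.10% in the Epcam-derived pair without CLC, and 19.8% and 12.9% in the pair with CLC. The lowest of these, in Albumin-derived tumour 1, was not well above background, and both tumours with CLC lay above the other 4. Cd8b1, its beta chain, measured 29.4% and 37.1%, 27.2% and 22.0%, and 27.9% and 65.6%, so that only tumour 2 with CLC stood out. Cd4, the coreceptor of helper T cells that macrophages can also carry, measured 3284% and 1709%, 4152% and 2585%, and 1189% and 2155%. Both tumours with CLC lay below both Epcam-derived tumours without CLC. The other probe of Cd4 stayed between 6.08% and 9.22%, and the other probe of Cd8a was well above background in Epcam-derived tumour 2 with CLC only.

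The adhesion receptor Cd2 and Cd5, which dampens receptor signalling, followed Cd3d. Cd2 measured 29.3% and 28.5%, 36.2% and 35.5%, and 27.8% and 92.9%. Cd5 measured 20.5% and 14.8%, 24.6% and 37.1%, and 19.7% and 62.4%. In all, 5 of the 8 T cell surface genes (Cd3d, Cd3g, Cd8b1, Cd2 and Cd5) were highest in Epcam-derived tumour 2 with CLC, while tumour 1 with CLC lay within or below the range of the tumours without CLC for each of these 5.

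Costimulatory and checkpoint receptors gave 4 measured genes of 7. Icos, a costimulatory receptor that appears on activated T cells, measured 7.49% and 4.05% in the Albumin-derived tumours, 8.12% and 16.6% in the Epcam-derived pair without CLC, and 15.3% and 15.4% in the pair with CLC. All 4 Epcam-derived tumours lay above both Albumin-derived ones, of which tumour 2 was not well above background. Cd28, the main costimulatory receptor of T cells, measured 13.0% and 31.7%, 34.3% and 13.6%, and 46.1% and 23.8%, with overlap between all groups. Lag3, an inhibitory receptor that binds MHC class II, measured 6.57% and 11.7%, 7.61% and 4.53%, and 11.3% and 10.7%. Pdcd1, which encodes the inhibitory receptor PD-1, had a single high tumour, with 3.71% and 12.7%, 36.99% and 4.90%, and 5.08% and 9.80%. Cd27 was well above background on 2 arrays, at 4.62% in Albumin-derived tumour 2 and 2.50% in Epcam-derived tumour 2 with CLC, and Ctla4 and Tigit on none.

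The 3 transcription factors were highest in Epcam-derived tumour 2 with CLC. Tbx21 (T-bet), a factor of type 1 helper, cytotoxic and NK cells, measured 11.8% and 8.21%, 11.4% and 6.01%, and 10.4% and 20.8%. Eomes, its relative, was well above background in 3 tumours, at 7.37% and 2.72% in the Epcam-derived tumours without CLC and at 10.2% in tumour 2 with CLC. Foxp3, the factor of regulatory T cells, was also seen in those 3 tumours, at 6.14% and 5.53% without CLC and 7.09% in tumour 2 with CLC. On the other 3 arrays, all on slide 1, neither was well above background.

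The granule genes held the member with the smallest p-values of the list. Gzmb, a granzyme that starts apoptosis in target cells, measured 4.22% and 3.99% in the Albumin-derived tumours, 13.0% and 14.2% in the Epcam-derived pair without CLC, and 15.3% and 19.2% in the pair with CLC. All 4 Epcam-derived tumours lay more than 3-fold above both Albumin-derived ones, and the second Albumin-derived value was not well above background. Gzma, a granzyme of cytotoxic T cells and NK cells, did not follow it, with 39.4% and 12.9%, 26.9% and 34.3%, and 65.5% and 31.6%. Prf1, the perforin that opens the target cell, spanned the narrow range of 37.7% to 53.2%, and both tumours with CLC lay below the other 4. Nkg7, a granule membrane protein of cytotoxic cells, measured 74.8% and 63.7%, 76.5% and 41.5%, and 90.8% and 148%, with both tumours with CLC above the other 4. Gzmk was well above background in Epcam-derived tumour 1 without CLC (3.80%) and tumour 2 with CLC (7.39%). Ifng, the cytokine interferon gamma, was well above background in tumour 2 with CLC alone, at 7.35%.

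Of the NK receptors, the activating receptor Klrk1 (NKG2D) and Klrd1 (CD94), a partner chain of NKG2 receptors, were highest in the tumours with CLC. Klrk1 measured 18.1% and 9.06%, 11.8% and 22.7%, and 29.9% and 34.3%. Klrd1 measured 21.9% and 12.2%, 16.9% and 9.68%, and 22.5% and 25.3%, so that both tumours with CLC lay just above Albumin-derived tumour 1. Ncr1 (NKp46), a receptor largely restricted to NK cells and related innate lymphocytes, was well above background on none of the 6 arrays, at 0.463% to 1.47%. Klrb1c (NK1.1), the classical NK marker of C57BL/6 mice, has 3 probes that did not agree. Its brightest probe measured 35.2% in Albumin-derived tumour 1 and 1.31% to 6.30% in the other 5 tumours, and the next probe 20.7% and 0.729% to 2.91%. The third, and the only one to pass the filter, measured 4.65% and 0.924% in the Albumin-derived tumours, 9.09% and 3.68% in the Epcam-derived pair without CLC, and 1.29% and 0.519% in the pair with CLC, where it was not well above background.

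**Figure D2:**
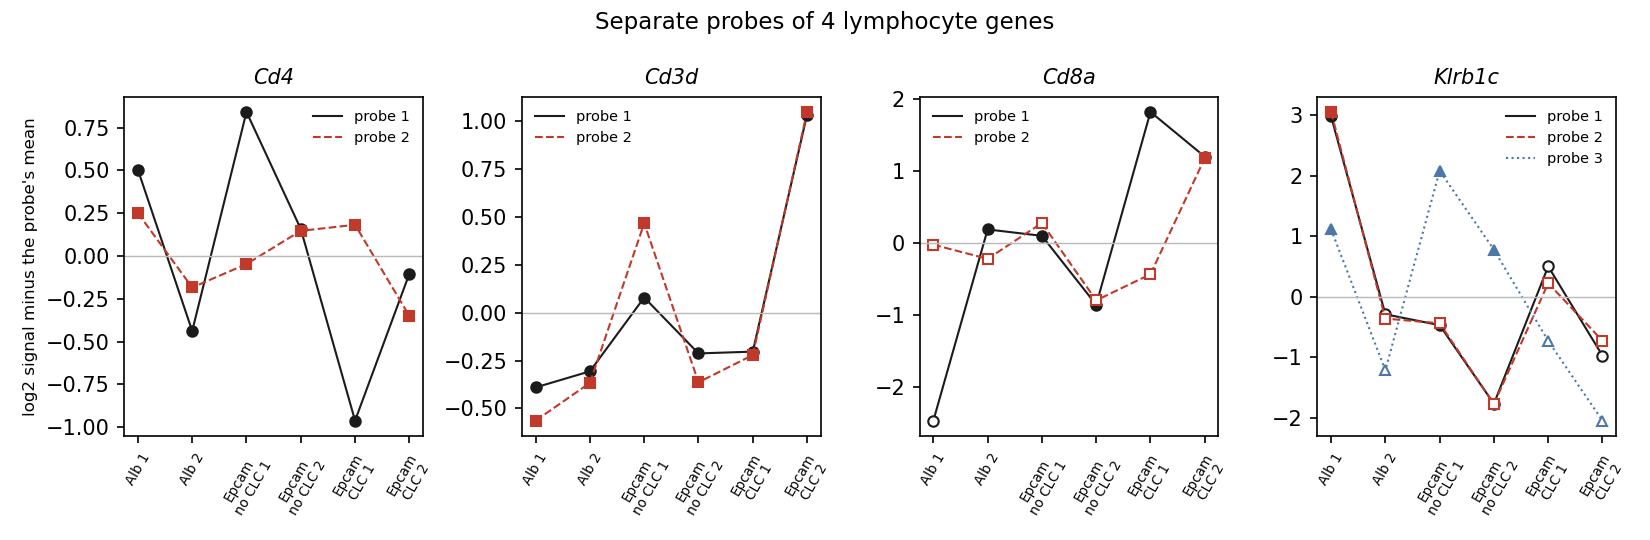
Log2 signal minus the probe's own mean over the 6 arrays for each probe of Cd4, Cd3d, Cd8a and Klrb1c, numbered from the brightest. Open symbols were not well above background. The 2 probes of Cd3d both peak in Epcam-derived tumour 2 with CLC, whereas probe 3 of Klrb1c departs from probes 1 and 2, which are highest in Albumin-derived tumour 1.

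B cell genes gave 4 measured genes of 6. Cd79b, the beta signalling chain of the B cell receptor, measured 64.3% and 24.2% in the Albumin-derived tumours, 72.4% and 89.4% in the Epcam-derived pair without CLC, and 111% and 109% in the pair with CLC. The groups did not overlap in any of the 3 comparisons. Ms4a1 (CD20), a surface protein of mature B cells, measured 10.1% and 1.35%, 5.05% and 8.75%, and 6.80% and 18.5%, with the second and the fifth value not well above background. Pax5, the factor that holds B cell identity, had 1 high tumour, at 34.5% in Epcam-derived tumour 1 with CLC against 12.1% to 14.1% in the other 5. Cr2, a complement receptor of B cells and follicular dendritic cells, ranged from 13.0% to 23.7%. Cd79a, the partner of Cd79b, was well above background in Epcam-derived tumour 2 without CLC alone (2.69%). Cxcr5, the receptor that guides B cells into follicles, was seen on 3 arrays, at 4.20% in Albumin-derived tumour 1, 2.53% in Epcam-derived tumour 2 without CLC and 5.38% in tumour 2 with CLC.

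The plasma cell genes went different ways. Jchain, the chain that joins secreted IgM and IgA, measured 62.0% and 23.9%, 110% and 4.53%, and 46.3% and 25.3%. Its 2 extremes were the 2 Epcam-derived tumours without CLC. Mzb1, a protein of the endoplasmic reticulum that aids antibody assembly, measured 12.7% and 14.9% in the Albumin-derived tumours and 6.79% to 9.42% in the 4 Epcam-derived ones. Pou2af1, a B cell coactivator of octamer factors, measured 7.70% and 1.24%, 8.03% and 8.53%, and 10.4% and 12.5%, the second value not well above background.

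**Figure D3:**
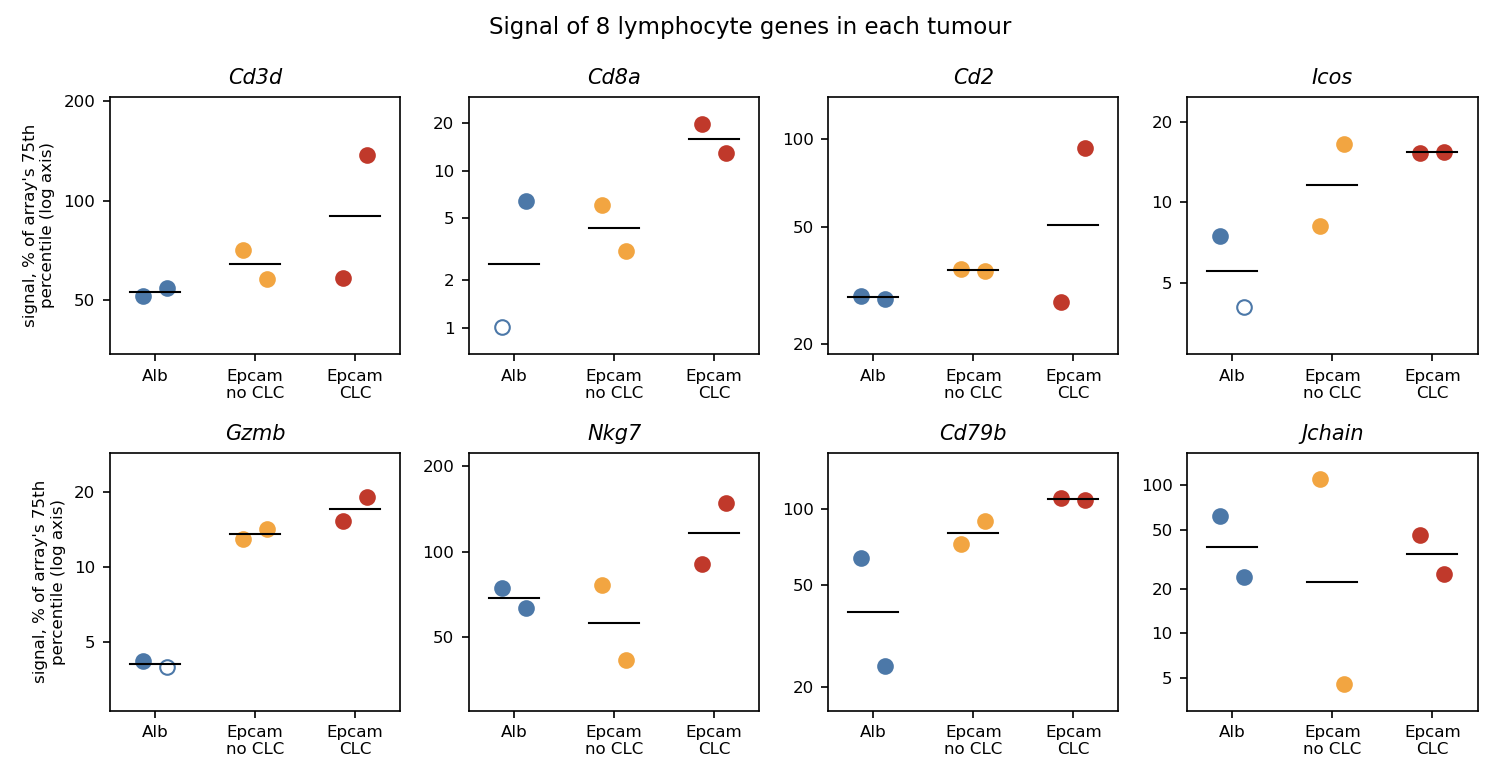
Signal of 8 genes in each tumour as a percentage of the array's 75th percentile, on log axes. Points are single tumours, open where the probe was not well above background, with replicate 1 to the left and replicate 2 to the right, and bars are the means of the 2 log2 values. Gzmb is at 3.99% to 4.22% in the Albumin-derived tumours and 13.0% to 19.2% in the 4 Epcam-derived tumours, whereas Cd3d and Cd2 stand out in tumour 2 with CLC alone.

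The comparison within the Epcam-derived tumours asks what differs where the CLC component is present. Of the 29 lymphocyte genes, 23 had a higher mean where CLC was present, and their median difference was 0.48 (log2), while 43.1% of all features were higher and their median was -0.06. Nkg7 was higher by 1.04 ± 0.42 (log2 difference ± SE, n = 2 against 2), Klrk1 by 0.97 ± 0.48, Lag3 by 0.91 ± 0.41, Klrd1 by 0.90 ± 0.42, Cd8b1 by 0.80 ± 0.46 and Cd8a by 1.89 ± 0.89. The other probe of Cd8a gave 0.63, with overlap between the groups. Cd4 was the gene with the largest negative difference that both groups measured, at -1.03 ± 0.49, and its other probe gave -0.13. Prf1 differed by -0.34 ± 0.26. Klrb1c, by its dimmest probe, was at least 1.64-fold lower with CLC. That probe passed the filter through the Epcam-derived tumours without CLC alone. The brighter probes of Klrb1c went the other way, at 0.88 and 0.85, and were not well above background in either tumour with CLC. The 1.64-fold bound uses the dimmest probe well above background on each array, where the gene's own signal lies below it.

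None of these differences passed the test. With limma and Benjamini-Hochberg adjustment over all features, 0 of the 29 genes were called, against 0% of features (0 of 27412). An unadjusted p under 0.05 was found for 2 of the 29, and for 954 of all 27412 features. The groups did not overlap, with both tumours with CLC higher, for 9 of the 29 (31.0%), against 10.3% of features, and with both lower for 3 of the 29, against 19.8%. Those 9 were Cd8a, Cd8b1, Lag3, Gzmb, Nkg7, Klrd1, Klrk1, Cd79b and Pou2af1. The 3 lower were Cd4, Prf1 and Klrb1c, the last by the dimmest of its probes, which did not agree. Klrb1c by that probe was also among the 2 with an unadjusted p under 0.05. Over the 20 genes seen on every array, for which the filter made no choice between groups, 17 were higher, with a median of 0.53. Without tumour 2 with CLC, 18 of 29 were higher and the median was 0.21. Without tumour 1 with CLC, which leaves only slide 2, the median was 0.56.

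By role, the means were higher with CLC for 6 of 8 T cell surface genes (median 0.41), 3 of 4 costimulatory and checkpoint receptors, 2 of 3 transcription factors, 3 of 4 cytotoxic genes (median 0.46), 2 of 3 NK receptors, 4 of 4 B cell genes (median 0.50) and 3 of 3 plasma cell genes. Among the B cell genes, Cr2 was higher by only 0.12 at its brightest probe. Its next probe, which also passed the filter, gave -0.70, and its dimmest, not well above background in these groups, 0.69. The count for T cell surface genes rested on tumour 2 with CLC. Without it 2 of 8 were higher (median -0.28), and Cd3d (-0.14), Cd3g (-0.33), Cd2 (-0.37) and Cd5 (-0.61) turned sign. The other roles then had 3 of 4 costimulatory and checkpoint receptors, 2 of 3 transcription factors, 3 of 4 cytotoxic genes (median 0.43), 2 of 3 NK receptors, 3 of 4 B cell genes (median 0.25) and 3 of 3 plasma cell genes higher. None of the 15 alternatives tried for each turned the sign of the following genes, but many of them could not. The replicate block, the intensity trend and a fit of only the 2 groups return the same difference. The slide block and the comparison within slide 2 equal leaving out tumour 1 with CLC. As the groups did not overlap for these genes, leaving out 1 tumour cannot turn a sign. Nkg7 ranged from 0.60 to 1.48, Klrk1 from 0.50 to 1.44, Klrd1 from 0.44 to 1.30 and Cd8b1 from 0.19 to 1.42. Lag3 ranged from 0.43 to 1.28 and Cd4 from -1.46 to -0.58. Cd8a was at 0.84 with normexp background correction.

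Further genes of the same pathways were counted in the same fit. Of 24 measured genes of T cell receptor signalling, 19 were higher with CLC (median 0.39) and 0 were called. With tumour 2 with CLC left out, 10 of the 24 were higher and the median was -0.15. Themis, which sets signal strength in developing T cells, differed most, by 2.95 ± 0.60. It measured 2.04% and 0.972% in the Albumin-derived tumours, 1.33% and 2.70% in the Epcam-derived pair without CLC, and 21.7% and 9.95% in the pair with CLC, with the first 3 values not well above background. This probe passed the filter through the tumours with CLC alone, and the other 2 probes of Themis were well above background on none of the 6 arrays. Zap70, the kinase that binds the phosphorylated CD3 chains, differed by 1.24 ± 0.53. Of 7 measured partners of NK and cytotoxic cells, 5 were higher, led by Ccl5, a chemokine made by cytotoxic cells (1.29 ± 0.42), and Ctsw, a protease of their granules (0.95 ± 0.31). Of 13 genes of lymphoid chemotaxis 8 were higher, led by Cxcl9, an interferon-induced attractant of T and NK cells (1.31 ± 0.59), and of 10 ligands of lymphocyte receptors 8 were. The 15 genes of B cell receptor signalling were split, with 7 higher (median -0.03), and so were the 7 plasma cell partners, with 3 higher. When that tumour was left out, 3 of 7 NK and cytotoxic partners (median -0.14), 5 of 13 chemotaxis genes (median -0.40), 7 of 10 ligands, 4 of 15 genes of B cell receptor signalling and 4 of 7 plasma cell partners were higher.

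Genes of other cell types were counted in the same way. All 11 markers common to leukocytes were higher with CLC (median 0.49), with summed signals of 2417% and 3166% of the 75th percentile without CLC and 3477% and 4842% with it. Of 13 macrophage genes 11 were higher (median 0.49), led by Marco, a scavenger receptor (2.28 ± 0.82), with sums of 7675% and 10060% without and 13272% and 10889% with CLC. Of 8 bile duct genes 7 were higher (median 1.41), with Krt19, a keratin of duct cells, at 2.56 ± 0.50. Their sums were 4426% and 2971% without and 6082% and 11013% with CLC. Of 10 hepatocyte genes 7 were lower (median -0.08), of 7 dendritic cell genes 5 were higher, and neutrophil genes were split, 3 of 6. Of 7 endothelial genes 4 were higher (median 0.24), and of 8 stellate cell and fibroblast genes 6 were (median 0.13). Leaving out tumour 2 with CLC, 9 of 11 leukocyte markers (median 0.34), 12 of 13 macrophage genes (median 0.61), 7 of 8 bile duct genes (median 1.24), 4 of 7 dendritic cell genes, 4 of 6 neutrophil genes and 7 of 10 hepatocyte genes were higher. So were 4 of 7 endothelial genes (median 1.53) and 5 of 8 stellate cell and fibroblast genes (median 0.24). None of these lists had a called gene, and their part in the differences of the lymphocyte genes was not tested.

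**Figure D4:**
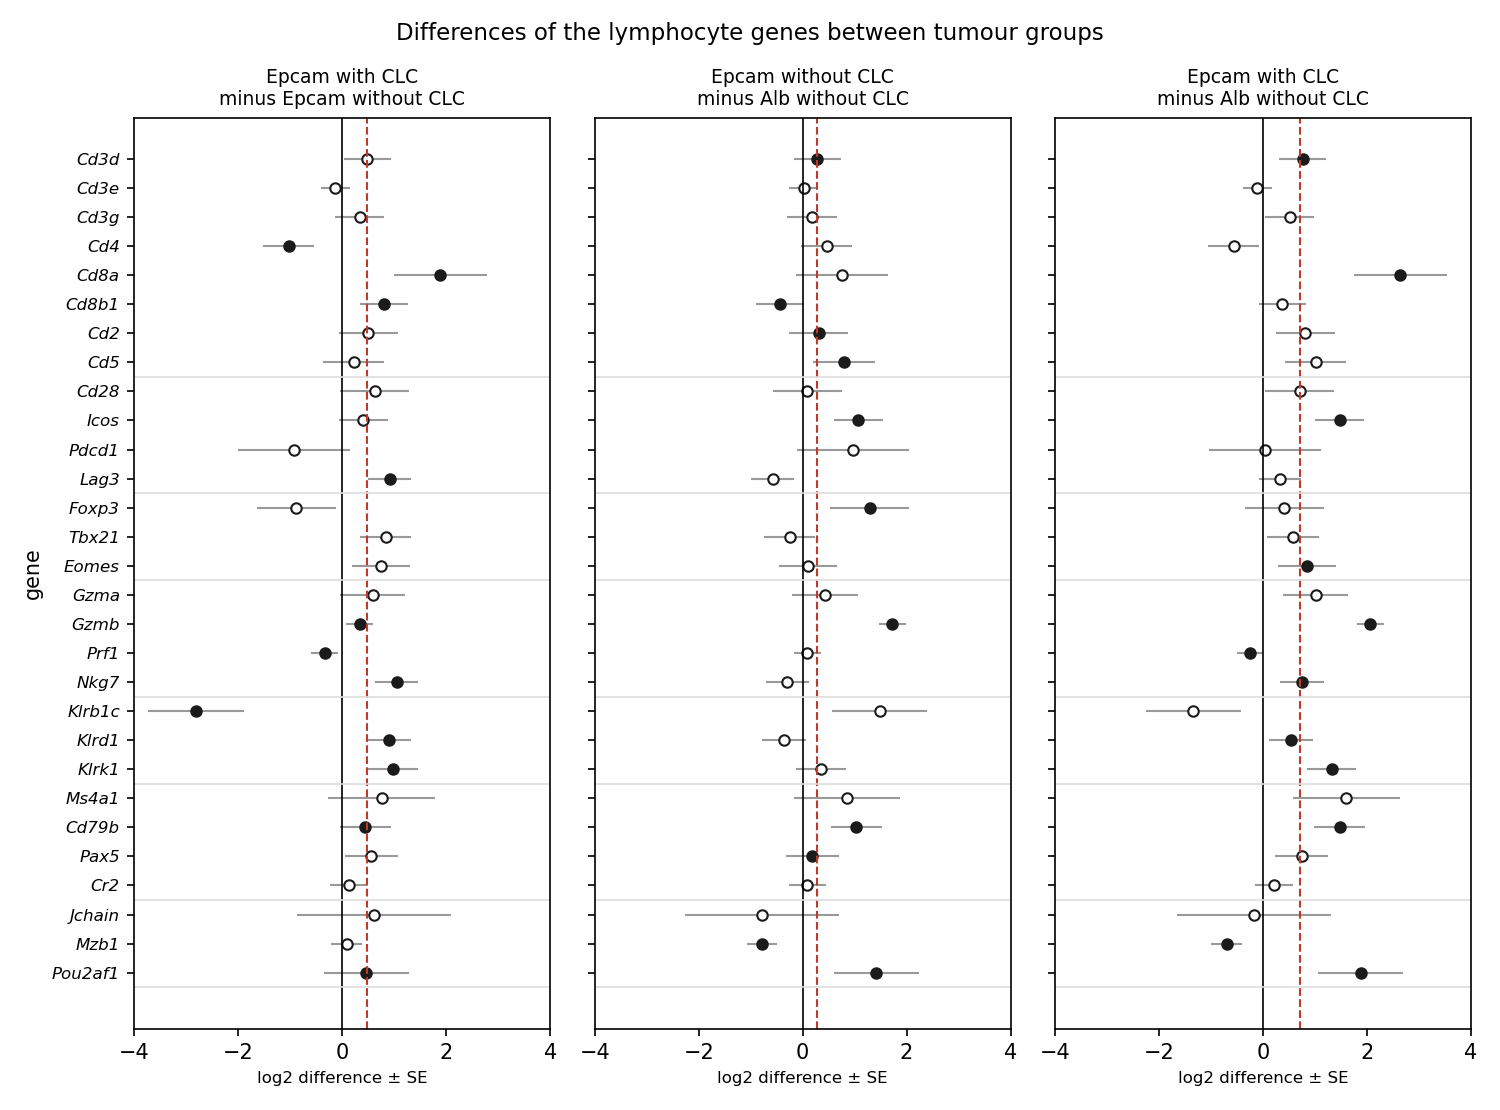
Log2 difference of each of the 29 lymphocyte genes in the 3 comparisons, with bars of ± 1 SE from the fit over all 6 arrays. Filled symbols are genes whose groups of 2 tumours do not overlap, and the dashed line is the median of the 29 (0.48, 0.28 and 0.71 from left to right). Klrb1c is drawn at its measured value, though it was not well above background in either tumour with CLC. Gzmb lies far right with short bars in the comparisons with Albumin-derived tumours.

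The comparison of Epcam-derived and Albumin-derived tumours, both without CLC, asks what differs with the cell of origin that the series names. The largest difference among the 29 lymphocyte genes in the fit was in Gzmb, which was higher in the Epcam-derived tumours by 1.73 ± 0.26 (3.31-fold, n = 2 against 2). Its adjusted p of 0.0740 (limma, Benjamini-Hochberg) missed the threshold of 0.05 and was the smallest of the list. Icos was higher by 1.07 ± 0.47, Cd79b by 1.03 ± 0.49, Pou2af1 by 1.42 ± 0.82 and Cd5 by 0.79 ± 0.59. Gzmb, Icos and Pou2af1 were well above background in only 1 of the 2 Albumin-derived tumours and passed the filter through the Epcam-derived groups alone. With normexp background correction they stood at 0.22, 0.02 and -0.01. The Albumin-derived values of Gzmb, 4.22% and 3.99%, lay near the dimmest probe well above background there, 3.71% and 4.29%, so the size of its difference rests on dim values. Cd5 turned to -0.87 with slide as a block. Foxp3 and Eomes were not well above background in either Albumin-derived tumour and passed the filter through the Epcam-derived tumours without CLC alone. Foxp3 was at least 1.46-fold higher on the processed signal, but its difference turned to -1.04 with slide as a block and to -0.18 with normexp. Eomes in Epcam-derived tumour 2 without CLC lay below both Albumin-derived values. Mzb1 was lower, at -0.78 ± 0.29, and Cd8b1 at -0.43 ± 0.46. Jchain, at -0.78 ± 1.48, spread too widely within the groups to give a difference. Klrb1c gave 1.48 ± 0.92 at its dimmest probe, which passed the filter through the Epcam-derived tumours without CLC alone. It is counted as higher below. The brighter probes of Klrb1c gave -2.47 and -2.45, with the highest value in Albumin-derived tumour 1.

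As a list, the lymphocyte genes stood close to all features in the share with both Epcam-derived tumours higher, though more had a higher mean. Of 29, 22 had a higher mean in the Epcam-derived tumours (median 0.28), while 53.5% of features were higher with a median of 0.06. With limma 0 of 29 were called, against 0.244% of features (67). An unadjusted limma p under 0.05 was found for 2 of 29, against 5482 of 27412 features. The groups did not overlap, with both Epcam-derived tumours higher, for 9 of the 29 (31.0%), against 30.4% of features, and with both lower for 2, against 24.8%. Over the 20 genes seen on all arrays 13 were higher, with a median of 0.09. Each group lay on a slide of its own, so slide and group cannot be told apart by a direct comparison. With slide as a block, which rests on the tumours with CLC as the link, the median turned to -0.39 with 12 of 29 higher, and with normexp background correction to -0.10 with 9 higher. Gzmb kept its direction in both, at 1.40 with the slide block and 0.22 with normexp.

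Pathway partners again showed no called gene. Of 24 measured genes of T cell receptor signalling 18 were higher (median 0.46), while Zap70 was lower by the most, -3.08 ± 0.53 (adjusted p = 0.0870 in limma). The 3 CD3 chains differed by less than their SE, with Cd3d at 0.28 ± 0.45, Cd3e at 0.02 ± 0.28 and Cd3g at 0.18 ± 0.47. With slide as a block they stood at -0.96, -0.15 and -1.15. Zap70 measured 725% and 343% in the Albumin-derived tumours, 67.2% and 52.1% in the Epcam-derived pair without CLC, and 207% and 94.4% in the pair with CLC, and its other probe had the same order, with 263% and 113%, 22.8% and 18.6%, and 64.9% and 33.9%. All 7 NK and cytotoxic partners were higher (median 0.42), with Tnfsf10, the death ligand TRAIL, at 2.05 ± 0.87 and Cd244a, a receptor of NK cells, at 1.59 ± 0.48. Of 10 receptor ligands 9 were higher, with Cd86, the ligand of CD28 on antigen-presenting cells, at 1.27 ± 0.28. Of 13 chemotaxis genes 11 were higher, and of 15 genes of B cell receptor signalling 11 were, with S1pr2 at 2.29 ± 0.60. Of 7 plasma cell partners 4 were lower, led by Derl3, a protein of endoplasmic reticulum quality control, at -4.74 ± 0.93. Its signal was 1644% and 9593% in the Albumin-derived tumours and 103% and 214% in the Epcam-derived ones without CLC.

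Other cell types differed alongside. Of 13 macrophage genes 12 were higher in the Epcam-derived tumours (median 1.09), with summed signals of 3617% and 7298% in the Albumin-derived tumours and 7675% and 10060% in the others, and of 11 markers common to leukocytes 9 were (median 0.41). Of 10 hepatocyte genes 9 were lower (median -0.91), with Tat, a tyrosine-degrading enzyme, at -1.97 ± 0.36. Of 8 bile duct genes 5 were higher (median 0.10). Dendritic cell genes were higher in 2 of 7 cases (median -0.65) and neutrophil genes in 2 of 6 (median -0.04). Endothelial genes were higher in 5 of 7 (median 0.35), and stellate cell and fibroblast genes in 7 of 8 (median 0.39). Whether these bear on the lymphocyte genes was not tested.

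The Epcam-derived tumours with CLC against the Albumin-derived tumours share their tumours with the comparisons above, so that the values are given side by side and not as further support. Gzmb was higher by 2.06 ± 0.26 (4.18-fold, adjusted p = 0.0751 in limma). The cytotoxic and T cell genes Cd8a (2.64 ± 0.89), Icos (1.48 ± 0.47), Klrk1 (1.32 ± 0.48), Nkg7 (0.75 ± 0.42) and Klrd1 (0.54 ± 0.42) were higher in both tumours with CLC than in either Albumin-derived tumour, as were the B lineage genes Cd79b (1.47 ± 0.49) and Pou2af1 (1.88 ± 0.82). Cd8a, Icos, Gzmb and Pou2af1 were well above background in only 1 of the 2 Albumin-derived tumours, so the sizes of their differences rest on a dim value there. For Cd8a that value was 1.02%, where the dimmest probe well above background stood at 3.71%, and for Pou2af1 1.24% against 4.29%. The other probe of Cd8a, well above background in tumour 2 with CLC only, gave 0.49, with overlap between the groups. Cd3d was higher by 0.76 ± 0.45, and by 0.14 without tumour 2 with CLC. Mzb1 (-0.70 ± 0.29) and Prf1 (-0.25 ± 0.26) were lower in both. With normexp, Gzmb stood at 0.54, Cd8a at 0.47, Icos at 0.28 and Pou2af1 at 0.16.

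Of the 29 genes, 23 were higher (median 0.71), against 49.3% of features (median -0.01). None was called by limma, 0 of 29, against 0.062% of features (17). An unadjusted limma p under 0.05 was found for 5 of 29, against 4388 of 27412 features. Groups did not overlap, with CLC higher, for 10 of 29 (34.5%), against 23.8% of features, and with CLC lower for 2, against 27%. Of the 20 genes seen on all arrays, 15 were higher (median 0.56). Without tumour 2 with CLC, which leaves only slide 1 and also is what the slide block gives, 18 of 29 were higher and the median was 0.27, and without tumour 1 with CLC it was 1.08.

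In this comparison 20 of 24 genes of T cell receptor signalling were higher (median 0.78), while Zap70 was lower at -1.83 ± 0.53. Themis was at least 3.69-fold higher, by the probe that passed the filter through the tumours with CLC alone. All 7 NK and cytotoxic partners were higher (median 0.95), with Ccl5 at 1.72 ± 0.42. Ccl5 measured 540% and 522% in the Albumin-derived tumours, 628% and 809% in the Epcam-derived pair without CLC, and 1182% and 2580% in the pair with CLC. Of 10 receptor ligands 9 were higher, with Cd86 at 1.79 ± 0.28 (adjusted p = 0.0976 in limma), and of 13 chemotaxis genes 11. Of 15 genes of B cell receptor signalling 11 were higher, with Bank1 at 2.04 ± 0.74, and of 7 plasma cell partners 2, with Derl3 at -5.56 ± 0.93. No gene of these lists was called. Without tumour 2 with CLC, 17 of 24 genes of T cell receptor signalling (median 0.39), 6 of 7 NK and cytotoxic partners (median 0.63), 8 of 10 ligands, 8 of 13 chemotaxis genes (median 0.12), 9 of 15 genes of B cell receptor signalling and 3 of 7 plasma cell partners were higher, and 3 of 8 T cell surface genes (median -0.11). The 11 markers common to leukocytes were all higher (median 0.87), as were 11 of 13 macrophage genes (median 1.59) and 7 of 8 bile duct genes (median 0.96), while all 10 hepatocyte genes were lower (median -1.14). Endothelial genes were higher in 7 of 7 cases (median 0.46), and stellate cell and fibroblast genes in 7 of 8 (median 0.69). Dendritic cell genes were higher in 3 of 7 (median -0.09) and neutrophil genes in 3 of 6 (median 0.27). In tumour 1 with CLC alone, 11 of 11 leukocyte markers, 12 of 13 macrophage genes and 6 of 8 bile duct genes were higher, and 1 of 10 hepatocyte genes was. There, 7 of 7 endothelial, 7 of 8 stellate cell and fibroblast, 1 of 7 dendritic cell and 5 of 6 neutrophil genes were higher. What part these play in the differences of the lymphocyte genes was not tested.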

How the data were processed

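Cy3-labelled RNA of 6 frozen tumours was hybridised to 1-colour Agilent arrays. The deposited scanner tables hold the processed signal, an intensity that, per the file headers, Agilent Feature Extraction 11.5.1.1 had corrected for background and not scaled between arrays. Marks such as well above background are other columns that the authors deposited. The authors' table of processed intensity holds, on each array, that signal times a single factor of unknown origin, and its scaling is an alternative. No array design beyond mm9 annotation was used, and probes were named by accession through RefSeq on GRCm38.p6, for names only.

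Here control and outlier spots were left out, log2 was taken, each array's 75th percentile was subtracted and spots of a probe were averaged. A probe was kept if both arrays of some group showed it well above background, counting a probe so if at least 0.5 of its spots were. The brightest kept probe stood for a gene, so that Klrb1c entered through its dimmest probe, and 34776 probes gave 27412 features. Differences were fitted with limma 3.58.1 (lmFit and eBayes, two-sided) in R 4.3.3, with data.table (1.17.8) and jsonlite 2.0.0, all 6 arrays in 1 fit with 3 residual degrees of freedom, with Benjamini-Hochberg adjustment over the 27412 features at 0.05. The script was tested on simulated data. The number of arrays limits the precision. Labels give replicates as separate tumours and do not say whether they come from separate mice, so p-values measure the spread between these tumours.

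Genes named were all 37 members, with values on each array for those seen on at least 4 arrays or with the largest differences, and up to 3 genes of largest difference from each pathway or cell type list. The members and lists were chosen with earlier results of these data known. No test over a list was run, and lists are described by counts and medians. Alternatives changed the background correction, scaling, filter, choice of probe, blocks, trend and arrays included. The files hold no mean signal column, so normexp (offset 50) was run on median signal and median background. Where both arrays of a group fell short of that mark, only a bound is given, taken against the dimmest probe well above background or its own signal if higher.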

Additional observations from a re-analysis of the deposited data

How the results depend on the processing

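No lymphocyte gene was called in any comparison under any alternative run, where a test could be made, and the adjusted p of Gzmb ranged from 0.0568 to 0.589 (Epcam-derived without CLC against Albumin-derived) and from 0.0702 to 0.275 (with CLC against Albumin-derived). Between Epcam-derived tumours with CLC and those lacking it, 0 features were called under every alternative, and the median of the lymphocyte genes kept its sign. It was 0.482 as reported, 0.322 with normexp and 0.209 to 0.556 with 1 tumour left out, lowest without tumour 2 with CLC, where 18 in place of 23 genes were higher. Leaving out this tumour for each gene list was chosen after seeing the data. Single-gene differences moved by more than the SD between replicates in 6 cases there (420 did not), in 41 for Epcam-derived without CLC against Albumin-derived (356 did not) and in 12 with CLC against Albumin-derived (414 did not). By construction, leaving out 1 tumour cannot move a difference by more than this SD. The replicate block, the intensity trend and a fit of only the 2 groups compared leave each difference unchanged. Such cases are among those that did not move, so these counts do not measure how steady the differences are.

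Against Albumin-derived tumours the values were less steady. Features called for Epcam-derived tumours without CLC, 67 as reported, were 129 with the authors' scaling, 135 with normexp, 102 with quantile normalization, 110 with the mean of probes, 32 with probes seen on all arrays, 1 with no filter, 16 with only the 2 groups fitted, 0 with slide as a block and 0 to 0 with 1 tumour left out. The median of the lymphocyte genes, 0.281 as reported, was 0.594 with the authors' scaling, which moved the median of all features to 0.37, -0.103 with normexp, 0.0891 with no filter, 0.0906 with probes seen on all arrays, -0.391 with the slide block and 0.104 to 0.427 with 1 tumour left out. The genes higher, 22 as reported, were 9 with normexp, 12 with the slide block and 13 of 20 seen on all arrays.

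For tumours with CLC, features called, 17 as reported, were 39 with an intensity trend, 66 with normexp, 66 with quantile normalization, 1 with no filter, 0 with only the 2 groups fitted, 0 with the slide block and 0 to 0 with 1 tumour left out. The median, 0.708 as reported, was 1.03 with the authors' scaling (all features 0.31), 0.164 with normexp, 0.267 with the slide block and within slide 1, and 0.267 to 1.08 with 1 tumour left out. The genes higher were 15 of 20 among those seen on all arrays. The cause of these shifts was not tested.

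The replicate numbers were not taken as pairs in the main fit. Deviations of same-numbered tumours correlated at -0.159, 0.062 and 0.232 between pairs of groups. With 2 tumours a group this cannot show whether the numbers mark pairs, and in the group with CLC the numbers coincide with slide. With the replicate block, 11 features were called between both groups without CLC and 0 between Epcam-derived tumours with CLC and Albumin-derived ones, and medians and directions are those reported.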
